A study of Rattus norvegicus with 24 samples.

Results

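The kidney inner medulla was compared with the heart ventricle in rats kept on high salt, by RNA sequencing of 4 kidney and 4 heart libraries out of the 24 libraries of the series. The libraries were chosen by their labelled tissue and diet, and the genes of both tissues were joined by symbol. The rats were Sprague-Dawley rats of 120 to 200 g that ate a synthetic diet with 0.4% Na for 7 days, which the sample titles call high salt and the protocol calls a control diet. None of them carried an aldosterone pump. Kidney tissue was the papilla of a single kidney, and heart tissue was a piece of the ventricle, so both are mixtures of cell types. In each tissue batch 1 held replicates 1 and 2, and batch 2 held the other two. Another 4 kidney and 4 heart libraries, from rats on 0.01 to 0.02% Na, gave each gene a second value. The labels describe the rats as female, but Xist, which silences an X chromosome in female cells, did not exceed 0.0458 CPM in any of the 8 high-salt libraries. The 4 Y-linked genes on the list summed to 151 to 171 CPM in kidney and 197 to 230 CPM in heart.

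The inner medulla is the part of the kidney where urine is concentrated. Its collecting ducts take up water through aquaporins and urea through urea transporters under the control of vasopressin, and its cells live in a hypertonic, poorly oxygenated medium against which they store organic osmolytes. Aldosterone acts on the mineralocorticoid receptor of the collecting duct to keep Na in the body. The ventricle is mostly working muscle by volume: its cardiomyocytes contract through the sarcomere, cycle calcium through the sarcoplasmic reticulum, and draw most of their energy from the oxidation of fatty acids in mitochondria. Cardiomyocytes also carry the mineralocorticoid receptor, and the heart answers stretch by releasing natriuretic peptides, which act on the kidney.

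Library totals ran from 34013000 to 38318000 counts in kidney and from 27162000 to 30421000 in heart. Levels below are normalised CPM, which are counts scaled to the library's size and corrected for its composition. They are not divided by transcript length, so a level can be compared between libraries for the same gene but not between genes. The heart libraries were carried by few genes: 341 to 391 genes held 50% of the counts there, against 1244 to 1304 genes in kidney. Ribosomal RNA took 0.754% to 1.09% of the counts in kidney and 2.15% to 3.6% in heart. Globin RNA from blood took 0.0365% to 0.443% in kidney and 0.235% to 3.70% in heart, and within each tissue both libraries of batch 1 lay above both of batch 2. Tissue also separates the deposited tables, so any difference in handling between the kidney and the heart set cannot be told apart from tissue. In such bulk samples fewer cells of a type and less RNA per cell cannot be told apart either.

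The labelled tissues had their defining transcripts, with an exception in heart. The 14 principal cell genes of the collecting duct summed to 9884, 11569, 10995 and 12107 CPM in kidney replicates 1 to 4, against 9.68, 93.7, 3.85 and 3.41 CPM in heart replicates 1 to 4. Heart replicate 2 thus stood far above the other hearts, and replicate 1 above both hearts of batch 2. The 6 genes of the thick ascending limb summed to 1171 to 2009 CPM in kidney, against 8.96, 146, 2.15 and 2.62 CPM in the hearts. The 10 genes of the proximal tubule summed to 300, 424, 82.0 and 115 CPM in kidney, against 45.9, 84.0, 1.37 and 0.74 CPM in the hearts. Here the kidneys of batch 1 were the higher ones too, and heart replicate 2 lay above kidney replicate 3. Heart replicates 1 and 2 on low salt showed the same, with 42.2 and 162 CPM of proximal tubule genes, against 1.03 and 1.58 CPM in replicates 3 and 4. List medians against hearts 3 and 4 alone, with genes at 0 there held at a floor of 3 counts, are given for several of the kidney lists, as are such ratios for some of their genes. The 24 sarcomere genes summed to 390 to 456 CPM in kidney, against 148878 to 171217 CPM in heart, and Tpm1, a tropomyosin of many cell types, made up 354 to 418 CPM of the kidney sum.

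**Figure D1:**
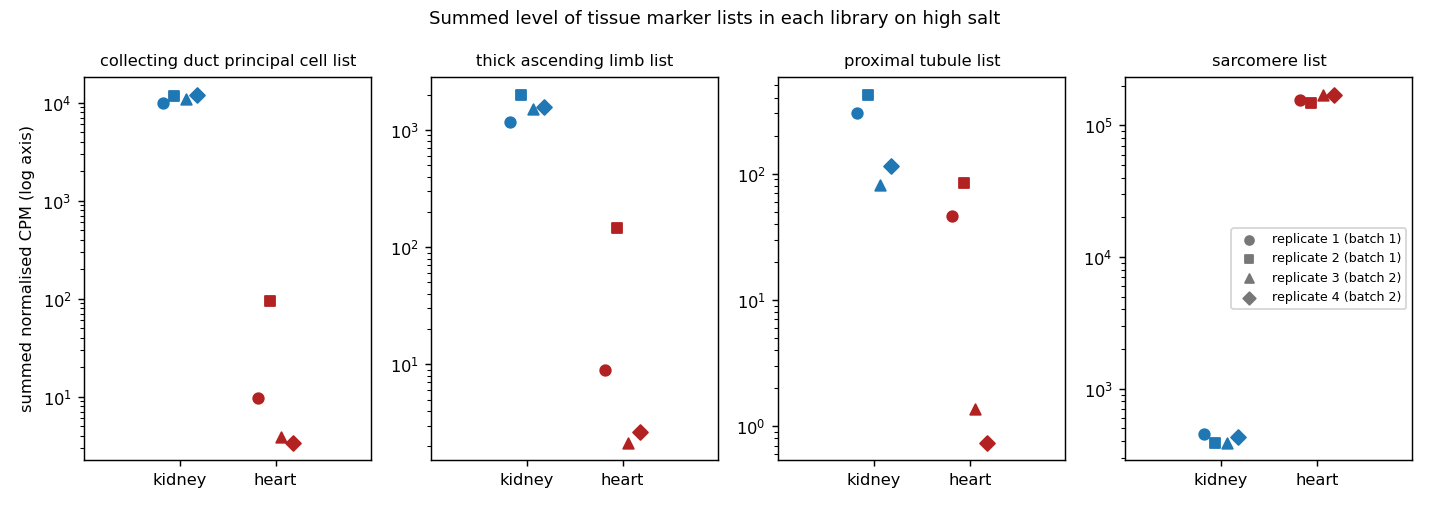
Summed normalised CPM (log axis) of 4 marker lists in each library on high salt, kidney left of heart, with 1 symbol per replicate number. Heart replicate 2 holds 93.7 CPM of principal cell, 146 CPM of thick ascending limb and 84.0 CPM of proximal tubule transcripts, above the other 3 hearts, while the sarcomere sums of the tissues are far apart.

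Most of the genes tested differed between the tissues. Of 18175 genes, 7702 (42.4%) were higher in kidney and 6827 (37.6%) lower, 14529 (79.9%) in all (edgeR quasi-likelihood F test, Benjamini-Hochberg adjusted p under 0.05). With library totals alone as the scale, in place of TMM factors, the split was 11925 higher and 3803 lower, and the median log2 difference over all genes moved by 0.89, to 1.02. On the TMM scale that median was 0.13, and all values below are read on that scale. Differences of at least 2-fold were called for 5169 genes (28.4%) higher and 4488 (24.7%) lower in kidney, and differences of at least 16-fold for 1162 (6.39%) and 1020 (5.61%). The 4 kidney values lay wholly above the 4 heart values for 7095 genes (39.0%) and wholly below for 6314 (34.7%). The typical spread was far smaller than these differences, with a median SD of log2 CPM over 4 rats of 0.17 in kidney and 0.18 in heart. With so large a background, counts of list members called are to be read against the shares of 42.4% higher and 37.6% lower. A list is described below by how far and how uniformly its members moved. Genes entered the test through a filter on counts that 1 tissue alone could meet. For genes near 0 in the other tissue the direction was thus partly set by the filter.

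**Figure D2:**
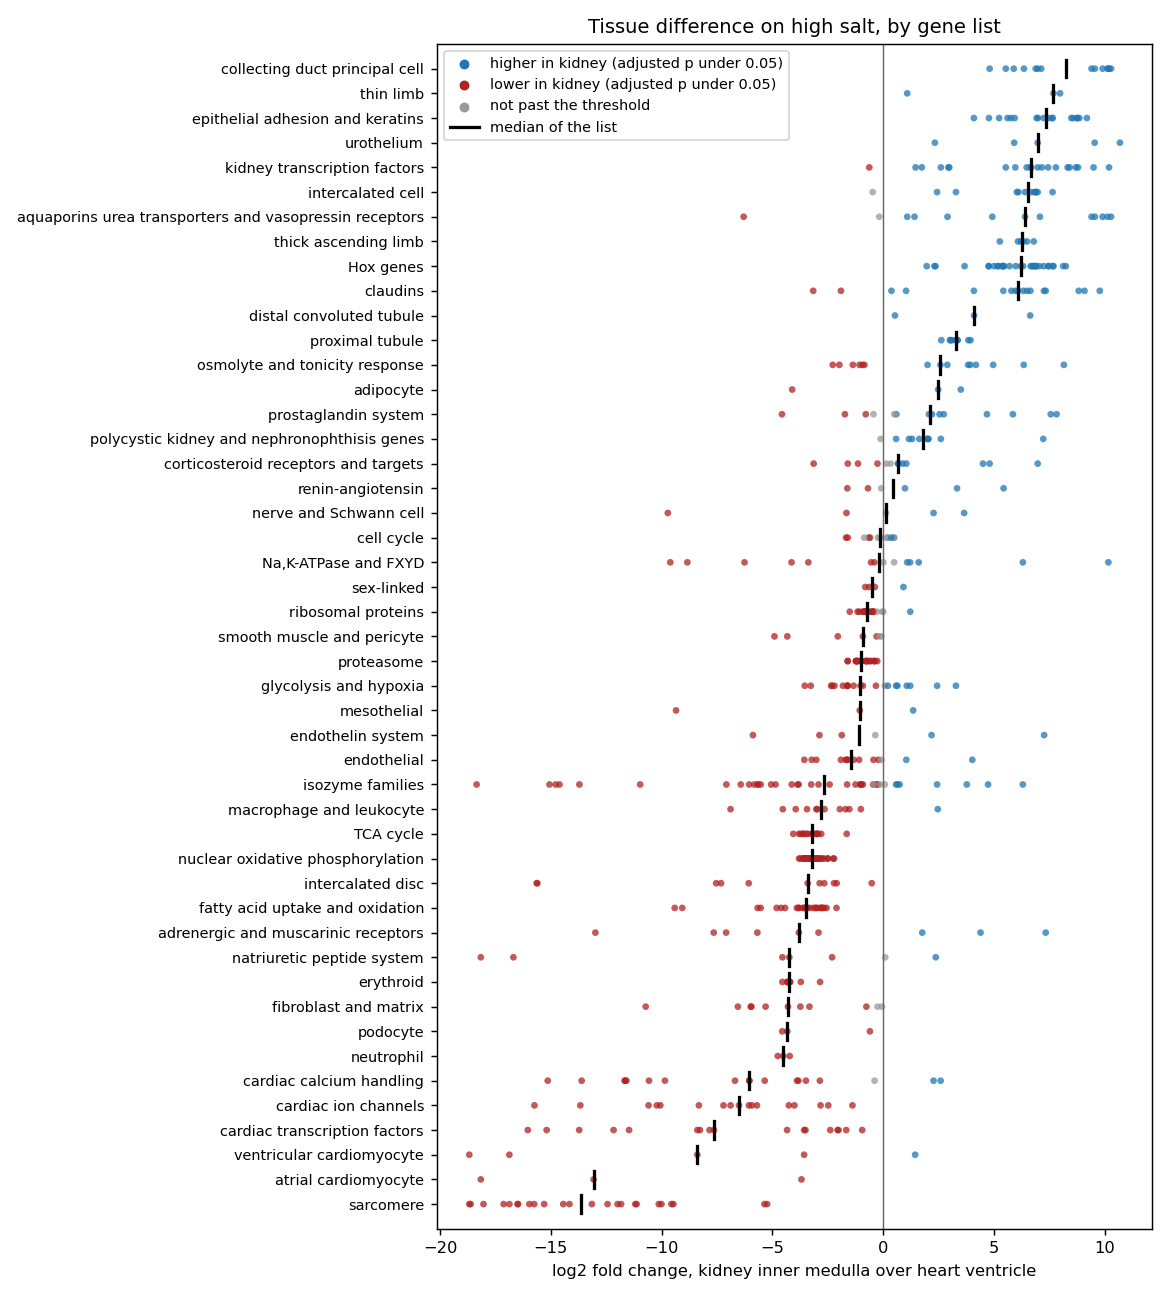
Log2 fold change of kidney inner medulla over heart ventricle for each tested member of the gene lists, 1 row per list with at least 3 tested members, ordered by the list's median (black bar). Collecting duct and epithelial lists lie on the right with medians up to 8.26, and the sarcomere list lies farthest left at -13.65.

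Contractile genes gave the widest gap. All 24 sarcomere genes were lower in kidney, with a median log2 fold change of -13.65, and none of their values overlapped between the tissues. Myh6, the fast cardiac myosin heavy chain, had 0.117, 0.691, 0.0214 and 0.022 CPM in the kidneys and 32149, 28248, 34631 and 25920 CPM in the hearts. That made up 2.22% ± 0.282 of all heart reads (SD, n = 4). Actc1, cardiac alpha actin, had at most 0.25 CPM in the kidneys and 24397, 25274, 36563 and 37167 CPM in the hearts, the hearts of batch 2 above those of batch 1. For Myl2, the regulatory light chain of the ventricle, the kidneys had 0, 0.096, 0 and 0 CPM and the hearts 11061, 12629, 11364 and 13998 CPM (log2 -18.68 ± 0.51 SE, adjusted p 6.18e-09). Its kidney counts were few and all came from replicate 2, so that SE can understate the error. Tnnt2, cardiac troponin T, was 22219-fold lower in kidney, at 0.776 ± 0.257 CPM against 17375 ± 1078 CPM in heart (SD, n = 4 each). Unc45b, a chaperone of myosin, had no count in any kidney library and 293 to 364 CPM in heart. The smallest differences of the list belonged to Tpm1 (log2 -5.24 ± 0.13 SE) and to Nebl, a nebulin-like actin binder with 16.9 to 22.4 CPM in kidney and 604 to 1220 CPM in heart (log2 -5.36). Myh7, the slow myosin heavy chain, had a single count in the 4 kidneys and 1020, 1099, 1445 and 6221 CPM in the hearts, with heart replicate 4 far above the rest.

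Several sarcomere genes carry the letters of muscle regulatory elements just before their start, shown here because the factors that bind such letters are muscle activators. Of the 18 sarcomere genes with a RefSeq window (GRCr8, 250 bases before to 50 after the start, both strands searched), 4 held a MEF2 site, the binding motif of the MEF2 factors. Their matches all lay before the start, and the stretches below run 5′ to 3′ on the gene's strand with the match in capitals.
Mybpc3 (chr3:97550927-97550986, plus strand): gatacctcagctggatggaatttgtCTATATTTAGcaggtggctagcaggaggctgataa
Ttn (chr3:82332242-82332301, minus strand): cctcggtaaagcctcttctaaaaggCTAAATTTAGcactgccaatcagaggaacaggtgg
Myoz2 (chr2:213852797-213852856, minus strand): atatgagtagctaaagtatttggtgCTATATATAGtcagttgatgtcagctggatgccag
Xirp1 (chr8:128635059-128635118, minus strand): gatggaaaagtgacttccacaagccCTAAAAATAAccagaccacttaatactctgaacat
The genes so marked encode cardiac myosin-binding protein C, titin, the Z-disc protein myozenin 2 and an actin-binding protein of the cell junctions. Another 4 sarcomere windows held a CArG box, the motif of serum response factor, and in 3 of them it lay before the start.
Myl3 (chr8:119616972-119617031, plus strand): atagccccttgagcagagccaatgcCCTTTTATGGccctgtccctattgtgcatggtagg
Ldb3 (chr16:9924697-9924756, minus strand): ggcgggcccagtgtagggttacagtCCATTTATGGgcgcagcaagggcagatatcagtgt
Nebl (chr17:85135439-85135498, minus strand): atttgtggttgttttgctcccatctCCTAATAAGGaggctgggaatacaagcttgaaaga
Both motifs consist mostly of A and T, and their letters can overlap each other and a TATA box. A MEF2 site was found in 22.2% of the sarcomere windows, in 7.98% of 789 windows of genes at least 16-fold lower in kidney and in 2.25% of 887 windows of genes at least 16-fold higher, against 2.27% of 14694 windows of all genes tested. The CArG box was found in 22.2% of the sarcomere windows, against 1.29% of all genes tested. In the sets at least 16-fold lower and higher in kidney its shares were 1.9% and 1.01%, near that of all genes tested. These matches describe letters in a window and do not show that a factor binds there.

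Calcium handling was lower in kidney for 15 of 18 genes, with a median log2 of -6.04. Atp2a2, the SERCA pump that refills the sarcoplasmic reticulum, had 183, 219, 260 and 242 CPM in the kidneys and 14282, 13900, 16704 and 14614 CPM in the hearts. The kidney level was thus well above 0 but 66.1-fold lower. Its inhibitor phospholamban (Pln) had 0.110 to 0.763 CPM in kidney and 5017 to 5501 CPM in heart, and the calcium release channel Ryr2 had 0.342 to 0.480 CPM in kidney and 1167 to 1599 CPM in heart. The calcium store protein Casq2 differed by a log2 of -15.14 ± 0.39. Of the 18 genes 2 went the other way. S100a1, a calcium sensor known as a modulator of cardiac contraction, had 353, 304, 303 and 264 CPM in the kidneys and 54.3, 55.8, 42.8 and 50.6 CPM in the hearts, with no overlap (log2 2.59 ± 0.09, adjusted p 2.50e-08). Fkbp1b, which binds the release channel, was low in both tissues, at 0.858 to 1.20 CPM in kidney and 0.0916 to 0.494 CPM in heart (log2 2.27 ± 0.46, adjusted p 0.00156).

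All 17 cardiac ion channel genes and all 11 intercalated disc genes were lower in kidney, with medians of -6.51 and -3.41. Kcnip2, a subunit of the transient outward K channel, had 0.792 to 1.70 CPM in kidney and 1079 to 1615 CPM in heart. Kcnq1, a K channel also known from epithelia, had the smallest difference of its list, with 40.1 to 50.6 CPM in kidney and 114 to 123 CPM in heart (log2 -1.39). Among the disc genes, N-cadherin (Cdh2) had 1.91 to 5.41 CPM in kidney and 480 to 606 CPM in heart, while plakoglobin (Jup), shared by discs and epithelial junctions, had 200 to 251 CPM in kidney and 266 to 361 CPM in heart.

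The transcription factors of the heart followed the same direction, with all 17 tested members lower in kidney at a median of -7.64. Members near 0 in kidney were tested only where heart was high, so that shared direction is partly set by the filter. Gata4 had no count in any kidney and 208, 236, 269 and 251 CPM in the hearts, at least 15739-fold lower in kidney when 3 counts over the kidney group are taken as the floor. Nkx2-5 was at least 8747-fold lower on the same floor, at 0 CPM in every kidney against 121 to 148 CPM in the hearts. Mef2a, Mef2c and Mef2d, the factors named for the motif above, were lower by 2.06, 4.34 and 2.39 on the log2 scale: kidney levels of 67.1 to 75.2, 4.33 to 6.99 and 58.8 to 64.3 CPM stood against heart levels of 267 to 359, 92.5 to 118 and 289 to 367 CPM. Irx4, a ventricular factor, had at most 0.307 CPM in kidney and 52.7 to 57.3 CPM in heart. Of the ventricular marker list 4 of 5 genes were lower and Mpped2 was higher in kidney, at 43.1 to 57.9 CPM against 16.2 to 18.6 CPM in heart.

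Genes of fuel oxidation were lower in kidney throughout the 3 lists. All 27 genes of fatty acid uptake and oxidation were lower in kidney (median -3.50, range -9.41 to -2.11), as were all 16 of the TCA cycle (median -3.20, range -4.06 to -1.65) and all 35 listed nuclear genes of oxidative phosphorylation, which leave out the cytochrome oxidase isoforms described further on (median -3.21, range -3.80 to -2.22). The scavenger receptor Cd36, which takes up fatty acids, had 0.470, 0.768, 0.364 and 0.154 CPM in the kidneys and 197, 206, 288 and 289 CPM in the hearts. Fabp3, the heart fatty acid binding protein, had 61.8 to 88.2 CPM in kidney and 3552 to 4316 CPM in heart. Citrate synthase (Cs) had 80.6, 84.7, 86.4 and 84.6 CPM in the kidneys and 1056, 1079, 1322 and 1234 CPM in the hearts, a log2 of -3.80 ± 0.09. Atp5f1b, the beta subunit of ATP synthase, had 1287 to 1413 CPM in kidney and 12019 to 13602 CPM in heart (log2 -3.23 ± 0.10). The oxidative phosphorylation list summed to 6172 to 6873 CPM in kidney against 59417 to 64107 CPM in heart.

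Several enzymes that come in a muscle form and another form showed a large difference in the muscle form and a smaller or opposite one in the other. Of 40 members of such families 30 were lower and 7 higher in kidney, with a median of -2.67. Among all genes tested 37.6% were lower and 42.4% higher. Muscle creatine kinase (Ckm) had 0.509, 0.442, 0.214 and 0.264 CPM in the kidneys and 4997, 4813, 5154 and 4270 CPM in the hearts, 13414-fold lower in kidney. The brain form Ckb had 232, 236, 170 and 229 CPM in the kidneys and 443, 417, 411 and 492 CPM in the hearts, lower by 1.03 on the log2 scale. The mitochondrial forms went in opposite directions. Ckmt2, the sarcomeric form, had 2 counts in all 4 kidneys and 4196 to 5251 CPM in heart, a ratio of 448044 with a counting interval of 124030 to 3699654. Ckmt1, the ubiquitous form, had 42.2, 43.9, 40.4 and 35.2 CPM in the kidneys and 0.102, 1.75, 0.183 and 0 CPM in the hearts, higher in kidney by a log2 of 6.30 ± 0.60, or 8.61 without heart replicate 2. Muscle glycogen phosphorylase Pygm differed by a log2 of -10.97 ± 0.16 and the brain form Pygb by -1.25 ± 0.09, while the liver form Pygl was higher in kidney at 4.73 ± 0.27, with 59.1 to 176 CPM in kidney and 1.97 to 7.05 CPM in heart. Enolase showed the same split, with the muscle form Eno3 at -7.08 ± 0.14 and the widely used Eno1 at 0.58 ± 0.12 (adjusted p 0.00214). Phosphoglycerate mutase 2 (Pgam2) stood at -15.06 ± 0.29 and Pgam1 at -0.33 ± 0.12, whose 4 values per tissue overlapped.

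Subunits of cytochrome c oxidase with a heart isoform behaved alike. Cox6a2 had 0.0428 to 0.117 CPM in kidney and 1674 to 1820 CPM in heart, and Cox8b had 0 to 0.107 CPM in kidney and 1285 to 1854 CPM in heart. Their other forms, Cox6a1 and Cox8a, differed by a log2 of only -0.98 ± 0.08 and -0.25 ± 0.06. Cox8a, at 203 to 221 CPM in kidney and 240 to 260 CPM in heart, was among the genes whose sign turned with library totals as the scale. The mitochondrial ADP/ATP carriers split likewise, with Slc25a4 at -6.43 ± 0.15 and Slc25a5 at -0.46 ± 0.09. Ldhb, the lactate dehydrogenase that favours lactate use, had 132, 184, 167 and 155 CPM in the kidneys and 6248, 4661, 4449 and 5859 CPM in the hearts (log2 -5.06 ± 0.18), and Ldha, the other form, differed by -1.03 ± 0.10. For glucose uptake, the insulin-regulated carrier Slc2a4 (GLUT4) had 7.20 to 14.1 CPM in kidney and 509 to 652 CPM in heart. Slc2a1 (GLUT1) had 121, 172, 161 and 145 CPM in the kidneys and 38.8, 25.8, 25.4 and 22.5 CPM in the hearts, higher in kidney by 2.43 ± 0.18. Of the carnitine palmitoyltransferases, Cpt1b (muscle) was lower at -5.53 ± 0.17 and Cpt1a (liver) higher at 0.74 ± 0.17, with overlapping values for Cpt1a.

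**Figure D3:**
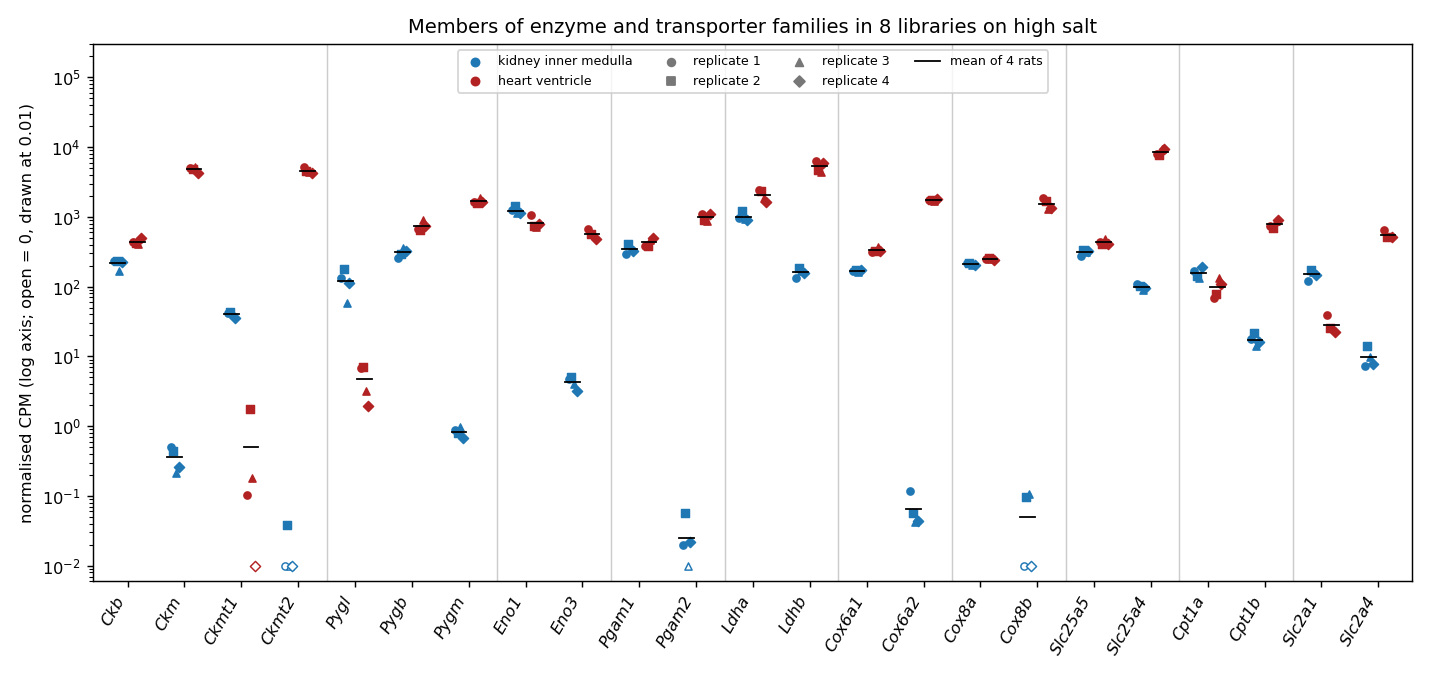
Normalised CPM (log axis) of members of enzyme and transporter families in the 8 libraries, kidney left of heart for each gene, black bars for the mean of 4 rats and open symbols for 0. The muscle forms (Ckm, Ckmt2, Pygm, Eno3, Pgam2, Cox6a2, Cox8b) lie far lower in kidney, while Ckb, Pgam1 and Cox8a differ by a log2 of -1.03, -0.33 and -0.25, and Pgam1 and Cox8a turn positive with library totals.

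Glycolytic and hypoxia-related genes did not move together: 7 of 21 were higher and 13 lower in kidney (median -1.03). The shares among all genes tested were 42.4% higher and 37.6% lower. Glyceraldehyde phosphate dehydrogenase (Gapdh) had 1271 to 1698 CPM in kidney and 6758 to 7401 CPM in heart (log2 -2.31 ± 0.11). Pyruvate kinase Pkm had 1806, 1908, 1883 and 2171 CPM in the kidneys and 1636, 1545, 1842 and 1679 CPM in the hearts. These values overlapped, and its adjusted p of 0.0466 became 0.102 with the replicate number as a block. The oxygen-regulated factors differed in direction. Hif1a had 140, 162, 192 and 197 CPM in the kidneys and 75, 76.2, 71.3 and 72.7 CPM in the hearts (log2 1.22 ± 0.10), whereas Epas1, which encodes HIF-2 alpha, had 36.1, 40.0, 32.2 and 37.6 CPM in the kidneys and 388, 378, 489 and 443 CPM in the hearts (log2 -3.54 ± 0.12). The monocarboxylate carrier Slc16a3, which exports lactate, was higher in kidney at 20.2 to 76.3 CPM against 2.11 to 7.59 CPM in heart.

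Collecting duct genes led the kidney side. All 14 principal cell genes were higher in kidney, with a median log2 of 8.26, and a median of 12.09 against hearts 3 and 4 alone when genes at 0 there are held at a floor of 3 counts. Aqp2, the vasopressin-regulated water channel, had 4206, 4914, 5200 and 5096 CPM in the kidneys, 0.66% ± 0.0558 of all kidney reads (SD, n = 4). In the hearts it had 1.32, 28.7, 0.0458 and 0 CPM, and the fitted log2 of 10.28 ± 1.60 (SE) was 13.40 without heart replicate 2. Against hearts 3 and 4, which held 1 count between them, the ratio was 203671 with a counting interval of 36555 to 8044575. Avpr2, the vasopressin receptor of the duct, had 241, 262, 306 and 327 CPM in the kidneys and 0.102, 1.49, 0 and 0 CPM in the hearts, and was at least 3956-fold higher in kidney than in hearts 3 and 4. The urea transporter Slc14a2 had 1112, 1309, 1314 and 1797 CPM in the kidneys and 1.27, 3.42, 0.229 and 0.346 CPM in the hearts, a ratio of 4812 against hearts 3 and 4. The ENaC subunits Scnn1a, Scnn1b and Scnn1g had 14.7 to 24.4, 24.5 to 32.7 and 42.5 to 50.8 CPM in kidney and at most 1.23, 0.832 and 1.18 CPM in heart. Among all 14 genes Scnn1a had the smallest log2 difference, 4.80 ± 0.34.

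The stretches below are those of principal cell genes whose RefSeq window (GRCr8) held a GATA site before the start. They are shown because Gata2 and Gata3 are among the kidney factors described further on. The letters searched were AGATAA on either strand, and capitals mark the match. Kcnj10 held a second match at bases -6 to -1, not shown.
Aqp2 (chr7:132590044-132590103, plus strand): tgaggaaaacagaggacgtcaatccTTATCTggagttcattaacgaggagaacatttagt
Kcnj1 (chr8:39037854-39037913, plus strand): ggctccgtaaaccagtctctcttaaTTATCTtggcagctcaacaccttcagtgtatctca
Kcnj10 (chr13:87334260-87334319, plus strand): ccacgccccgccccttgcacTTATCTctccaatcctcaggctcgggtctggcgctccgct
A GATA site lay in 3 of 11 principal cell windows (27.3%), against 7.7% of all genes tested 6.99% of genes at least 16-fold higher and 11.5% of genes at least 16-fold lower in kidney. It also lay in 3 of 18 sarcomere windows (16.7%). No principal cell window held a MEF2 site, and 1 of 11 (9.09%) held a CArG box.

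Of 13 tested aquaporins, urea transporters and vasopressin receptors, 11 were higher and 1 lower in kidney. Aqp3 and Aqp4, the basolateral exits for water, had 1387 to 1915 and 846 to 1284 CPM in kidney and at most 10.5 and 4.12 CPM in heart, both peaks being heart replicate 2. Aqp1, which is also found in capillary endothelium, had 1071, 1040, 1121 and 729 CPM in the kidneys and 463, 544, 460 and 407 CPM in the hearts, so it differed by only 2.11-fold (adjusted p 8.33e-05). Aqp7, a glycerol channel, was the exception, with 3.52, 4.26, 0.599 and 0.792 CPM in the kidneys and 119, 136, 210 and 166 CPM in the hearts (log2 -6.30 ± 0.60). Avpr1b stood at 0.198 to 0.568 CPM in kidney and 0.263 to 0.444 CPM in heart and was not called (log2 -0.18, 95% interval -1.11 to 0.74, adjusted p 0.69).

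Transcripts known from other cells of the tubule were found in the papilla samples at differing levels. Intercalated cell genes, which drive acid and base transport, were higher in kidney for 11 of 12 members (median 6.54, and 9.11 against hearts 3 and 4 with the floor). The proton pump subunit Atp6v1b1 had 71.1 to 104 CPM in kidney and 0.662, 2.50, 0 and 0 CPM in the hearts. The anion exchanger Slc4a1 is shared with red blood cells: it had 528, 738, 885 and 640 CPM in the kidneys and 143, 129, 47.5 and 26.6 CPM in the hearts, where it was highest in the same batch as globin. Slc26a4 (pendrin) was the member not called, at no more than 0.480 CPM in kidney and 0.592 CPM in heart. Umod, the marker of the thick ascending limb, had 403, 767, 454 and 402 CPM in the kidneys and 3.87, 65.6, 0 and 0 CPM in the hearts (log2 6.21 ± 1.48), and was at least 7185-fold higher in kidney than in hearts 3 and 4. The median of the proximal tubule genes was 3.28 with all hearts, 3.75 without heart replicate 2 and 7.04 against hearts 3 and 4 with the floor. The phosphate carrier Slc34a1 had 76.4, 112, 16 and 23.3 CPM in the kidneys and 12.8, 29.4, 0 and 0 CPM in the hearts. Genes of the urothelium, which lines the renal pelvis, were higher in kidney for the 5 tested members of 7 (median 6.97, and 7.53 against hearts 3 and 4). Those 5 were 4 uroplakins and the factor Tp63, and their shared direction is partly set by the filter. The uroplakin Upk2 had 103, 12.5, 31.1 and 31.5 CPM in the kidneys and at most 0.0509 CPM in heart. Kidney replicate 1 was the highest there. Of 5 podocyte genes 3 were tested, and all 3 were lower in kidney, with Podxl, which endothelium also makes, at 90.2 to 103 CPM in kidney and 136 to 156 CPM in heart (log2 -0.60, turning to 0.30 with library totals as the scale). Wt1, known also from the outer layer of the heart, had 0.638 to 0.855 CPM in kidney and 14.1 to 17.7 CPM in heart.

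Epithelial identity genes were higher in kidney without exception, 18 of 18 with a median of 7.35. It was 8.30 without heart replicate 2 and 8.89 against hearts 3 and 4. Cdh16, a cadherin of kidney tubules, had 2132, 2200, 2243 and 2196 CPM in the kidneys and 3.77, 24.8, 0.733 and 1.33 CPM in the hearts, a ratio of 2145 against hearts 3 and 4. Epcam had 989 to 1321 CPM in kidney and 0.0458 to 14.8 CPM in heart, a ratio of 8461 against hearts 3 and 4. The splicing regulator Esrp1 had 59.1 to 73.2 CPM in kidney and 0 to 0.394 CPM in heart. Tight junction claudins were higher in 15 of 17 tested members (median 6.08, and 7.06 without heart replicate 2), a count partly set by the filter. Cldn8 and Cldn4, which form the barrier of the collecting duct, had 399 to 534 and 309 to 340 CPM in kidney and at most 3.59 and 1.27 CPM in heart. The exceptions were Cldn5, the claudin of endothelium, at 7.91 to 10 CPM in kidney and 28.5 to 39.9 CPM in heart, and Cldn22, below 2 CPM in both tissues.

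Among 21 kidney transcription factors 20 were higher and 1 lower in kidney (median 6.68, and 8.05 against hearts 3 and 4 with the floor). Pax2, needed to form the kidney, had 174, 207, 335 and 345 CPM in the kidneys and 0.306, 2.06, 0 and 0 CPM in the hearts, at least 3665-fold higher than in hearts 3 and 4. The epithelial ETS factors Ehf and Elf5 had 378 to 653 and 117 to 173 CPM in kidney and at most 2.01 and 0.350 CPM in heart. Gata2 and Gata3 had 124 to 160 and 211 to 362 CPM in kidney and 16.5 to 18.3 and 1.60 to 3.11 CPM in heart. Irx3 went the other way, with 25.9, 24.2, 20.6 and 23 CPM in the kidneys and 32.8, 24.7, 39.8 and 50.7 CPM in the hearts (log2 -0.63 ± 0.19, adjusted p 0.0129). Its values overlapped, and its sign turned with library totals as the scale.

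Hox genes, which set position along the body axis, separated the tissues cluster by cluster. Of 39 Hox genes 31 had enough counts to test, and all 31 were higher in kidney, with a median of 6.21 and of 5.98 when genes at 0 in heart are held at their floor. The filter can be met in 1 tissue alone, so genes near 0 in heart were tested only where kidney was high. That all 31 share a direction is thus partly set by the filter. The median was 7.65 without heart replicate 2, and 6.46 against hearts 3 and 4 with the floor. The medians were 5.32 for 10 Hoxa genes, 6.89 for 8 Hoxb genes, 5.82 for 6 Hoxc genes and 6.76 for 7 Hoxd genes. Hoxb6 had 155, 168, 188 and 205 CPM in the kidneys and 0.356, 2.63, 0.229 and 0.247 CPM in the hearts. Hoxd8 had 132, 135, 136 and 127 CPM in the kidneys and 1.27, 3.24, 0.0916 and 0.691 CPM in the hearts. For both genes no heart reached a kidney, and heart replicate 2 was the highest heart. The smallest differences were at the front of the Hoxa cluster, where Hoxa3 had 2.36 to 3.76 CPM in kidney and 0.458 to 1.36 CPM in heart (log2 1.96 ± 0.37), and Hoxa4 stood at 2.31. At the rear, Hoxa11, Hoxc11 and Hoxd11 were higher in kidney, whereas Hoxa13, Hoxb13, Hoxc12, Hoxc13, Hoxd12 and Hoxd13 had no count in any of the 8 libraries. With 3 counts as the limit that 0 allows, their level was at most 0.0660 CPM in a kidney and 0.153 CPM in a heart library. Hoxc4 was not tested either, and had 0.509, 0, 1.35 and 1.19 CPM in the kidneys and 0 CPM in the hearts.

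**Figure D4:**
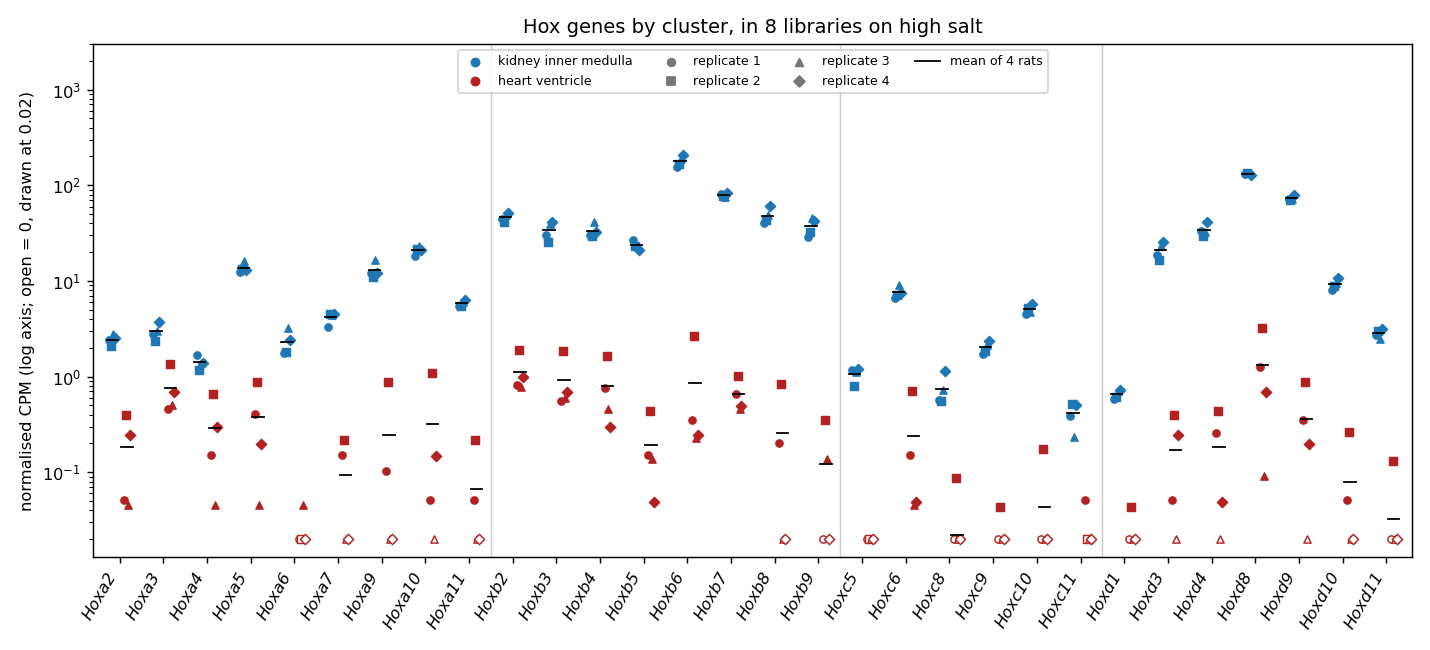
Normalised CPM (log axis) of tested Hox genes, ordered within their 4 clusters, kidney left of heart for each gene, black bars for the mean of 4 rats and open symbols for 0. Kidney values reach 205 CPM for Hoxb6 and lie above the hearts for every gene drawn. Among 31 tested Hox genes, drawn or not, heart replicate 2 (square) is the highest heart for 28, a count that includes any ties at 0.

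Osmolyte and tonicity genes were mixed, with 9 of 15 higher and 6 lower in kidney (median 2.58). Among all genes tested 42.4% were higher and 37.6% lower, so the count of lower members was near the background. Akr1b1, the aldose reductase that makes sorbitol, had 6020, 5536, 7683 and 7097 CPM in the kidneys and 460, 457, 379 and 422 CPM in the hearts (log2 3.93 ± 0.15, adjusted p 3.28e-08). Its short reads may be shared with near-identical relatives. Slc6a12, the betaine carrier, had 103, 186, 296 and 135 CPM in the kidneys and 0.407, 1.62, 0.229 and 0.148 CPM in the hearts. Slc5a3, the inositol carrier, was higher by 4.96 ± 0.18, and Nfat5, the factor that switches these genes on in hypertonic medium, by 2.58, at 325 to 384 CPM in kidney and 51.4 to 64.2 CPM in heart. The members lower in kidney were Sord, which breaks sorbitol down (8.47 to 28.6 CPM in kidney and 59.3 to 97.2 CPM in heart), the small heat shock proteins Cryab and Hspb1, the taurine carrier Slc6a6, the amino acid carrier Slc38a2 and Gdpd5. Cryab, a chaperone of the sarcomere as well, had 819 to 975 CPM in kidney and 2886 to 3909 CPM in heart.

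Prostaglandin genes were higher in 9 of 14 members and lower in 3 (median 2.13), against 42.4% higher and 37.6% lower among all genes tested. Ptgs1 (cyclooxygenase 1) had 556, 560, 460 and 513 CPM in the kidneys and 9.01, 10.7, 10.2 and 6.37 CPM in the hearts, a log2 of 5.85 ± 0.16. The prostaglandin E synthase Ptges and the receptors Ptger1 and Ptger3 stood at 7.56 ± 0.30, 7.82 ± 0.28 and 4.68 ± 0.46. Ptgis, which makes prostacyclin, was the reverse, at 1.09 to 1.82 CPM in kidney and 26.3 to 39.0 CPM in heart (log2 -4.57 ± 0.20).

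Of the corticosteroid receptors, 1 was near level between the tissues. Nr3c2, the mineralocorticoid receptor, had 42.8, 49.4, 45.8 and 47.6 CPM in the kidneys and 39.1, 41.7, 48.6 and 40.8 CPM in the hearts. These values overlapped, and the log2 difference of 0.13 had a 95% interval of -0.07 to 0.32 (adjusted p 0.195). It passed the threshold on other scales, at 0.31 with upper quartile scaling and 1.02 with library totals, where all genes moved upward together. Nr3c1, the glucocorticoid receptor, had 61.8, 60.9, 62.7 and 54.0 CPM in the kidneys and 129, 131, 133 and 133 CPM in the hearts, 2.2-fold lower in kidney. Hsd11b2, the enzyme that inactivates glucocorticoids and so leaves the mineralocorticoid receptor to aldosterone, had 221, 234, 255 and 297 CPM in the kidneys and 0.611, 8.58, 0.0458 and 0.296 CPM in the hearts. The kidneys were thus far above every heart, by a ratio of 1505 against hearts 3 and 4. Hsd11b1, which works in the opposite sense, had 55.1 to 69.7 CPM in kidney and 30.1 to 48.8 CPM in heart (log2 0.66 ± 0.15). Sgk1, the kinase that raises ENaC at the membrane, had 261, 570, 627 and 656 CPM in the kidneys and 22.8, 29.9, 18.5 and 20.9 CPM in the hearts (log2 4.50 ± 0.32), with kidney replicate 1 below the other kidneys. Of 13 receptors and targets 7 were higher and 4 lower in kidney, against 42.4% higher and 37.6% lower among all genes tested. The lower ones besides Nr3c1 were Zbtb16, Klf9 and Fkbp5, while Tsc22d3 had 101 to 211 CPM in kidney and 101 to 127 CPM in heart and was not called (adjusted p 0.144).

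Hormones of the heart and their receptors were divided between the tissues. Nppa, which encodes atrial natriuretic peptide, had no count in the kidneys and 364, 140, 414 and 3480 CPM in the hearts, at least 69224-fold lower in kidney on the floor of 3 counts over the group. Heart replicate 4 was the highest, as it was for Myh7. The atrial light chain Myl7 had 75.4, 5.47, 17.7 and 22.1 CPM in hearts 1 to 4. Nppb had 367, 307, 196 and 645 CPM in the hearts and none in the kidneys. Their receptor Npr1 had 36.0, 33.4, 31.6 and 27.8 CPM in the kidneys and 32.6, 36.8, 29.2 and 22.9 CPM in the hearts, overlapping throughout (log2 0.09, 95% interval -0.14 to 0.33, adjusted p 0.413), and was called at 0.99 with library totals as the scale. The clearance receptor Npr3 was lower in kidney at -4.55 ± 0.25. Of the proteases that cut the propeptides, Corin had 3.84 to 11.7 CPM in kidney and 96.3 to 256 CPM in heart, and Furin had 652 to 859 CPM in kidney and 139 to 171 CPM in heart.

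Within the renin-angiotensin system, Agtr2 and Mas1 were too low to test. The angiotensin receptor Agtr1a had 3.95 to 5.30 CPM in kidney and 1.93 to 2.75 CPM in heart (log2 0.98 ± 0.21), while Ace had 3.30 to 4.53 CPM in kidney and 9.87 to 15.1 CPM in heart (log2 -1.62 ± 0.15). Agt itself was under 2 CPM everywhere and not called (adjusted p 0.81). Endothelin receptors were reciprocal. Ednrb had 145, 137, 145 and 138 CPM in the kidneys and 26, 36.1, 35.5 and 27.4 CPM in the hearts (log2 2.18 ± 0.12), and Ednra had 1.39, 0.902, 2.48 and 1.87 CPM in the kidneys and 90.8, 91.0, 74.9 and 123 CPM in the hearts (log2 -5.88 ± 0.26). Receptors for the autonomic transmitters divided too. Adra2a had 23.2 to 27.6 CPM in kidney and 0.0916 to 0.219 CPM in heart, whereas the muscarinic receptor Chrm2 had at most 0.0642 CPM in kidney and 217 to 368 CPM in heart, and Adrb1 differed by -5.68 ± 0.33.

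The Na,K-ATPase, which drives Na transport in both tissues, differed by subunit. Atp1b1 and Atp1b3 were higher in kidney at 1.21 ± 0.11 and 1.60 ± 0.07, and Atp1b2 was level at 0.01 ± 0.12 (adjusted p 0.958). The FXYD proteins that tune the pump exchanged places. Fxyd4 and Fxyd2 had 878 to 1322 and 943 to 1162 CPM in kidney and 0.0458 to 3.77 and 4.03 to 46.8 CPM in heart, and Fxyd4 stood at a ratio of 23133 (counting interval 6404 to 191019) against hearts 3 and 4. Fxyd1 (phospholemman) had 0.518 to 0.959 CPM in kidney and 556 to 638 CPM in heart. Of the 14 genes 5 were higher and 7 lower in kidney, against 42.4% higher and 37.6% lower among all genes tested. Fxyd5, at 6.64 to 11.8 CPM in kidney and 11.6 to 12.8 CPM in heart, was called at an adjusted p of 0.0484, which became 0.0803 with the replicate number as a block.

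Genes of the cells between the parenchymal cells also differed. Fibroblast and matrix genes were lower in kidney for 9 of 11 members and not called for the other 2 (median -4.30). Col3a1 had 27.9, 21.9, 17.3 and 8.47 CPM in the kidneys and 2218, 1780, 1361 and 1492 CPM in the hearts, and Lum had at most 0.117 CPM in kidney and 101 to 117 CPM in heart. Fibronectin (Fn1) was not called, at 71.5 to 92.4 CPM in kidney and 72.3 to 94.7 CPM in heart. Endothelial genes were lower for 11 of 14 members (median -1.48), among them Kdr and Vwf at -3.23 ± 0.17 and -3.56 ± 0.20. Plvap, which forms the diaphragms of fenestrated capillaries, went against them with 347, 295, 235 and 217 CPM in the kidneys and 8.15, 20.5, 18.7 and 19.2 CPM in the hearts (log2 4.02 ± 0.31), and Emcn was higher by 1.04 ± 0.08. Macrophage and leukocyte genes were lower in 11 of 12 members (median -2.81), with the B cell gene Cd79a the exception at 2.46 ± 0.23. Erythroid genes were lower in all 9 (median -4.26), with summed levels of 273 to 3169 CPM in kidney and 3231 to 49043 CPM in heart. Their part in other results was not tested.

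Genes of general upkeep moved less. Proteasome genes were lower in kidney in all 24 members, at a median of -0.98 and within -1.61 to -0.27, and ribosomal protein genes were lower in 22 of 26 (median -0.74). Both medians lay within reach of the choice of scale, at -0.09 and 0.15 with library totals, so their direction relative to all other genes is what the TMM scale gives. Rpl3 was the ribosomal gene that was higher in kidney, at 342 to 453 CPM against 157 to 192 CPM in heart. Cell cycle genes were called in 5 of 18 cases, 2 higher and 3 lower, against 79.9% called among all genes tested. An interval of log2 within 0.5 either side of 0 was obtained for 2000 genes (11%). The genes closest to equality at 100 CPM or more were Tmem132a (120 to 136 CPM in kidney and 110 to 144 CPM in heart), Edf1 (134 to 160 and 139 to 162 CPM), Nono (159 to 164 and 146 to 171 CPM), Fat1 (103 to 115 and 97.7 to 127 CPM) and Hsp90b1. The last of these had 401, 403, 382 and 382 CPM in the kidneys and 312, 314, 493 and 483 CPM in the hearts, so its equality was a mean over hearts that differed by batch.

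Outside the lists, several genes differed as widely. Gpha2, a glycoprotein hormone subunit, had 668, 322, 392 and 458 CPM in the kidneys and 0.137 to 0.204 CPM in the hearts (log2 11.41 ± 0.35), without the peak of heart replicate 2 seen in duct genes. Ly6al, Dcdc2, Fgfbp1, Slco4a1, Fermt1 and Sprr1a had log2 fold changes of 11.47, 11.05, 10.57, 10.23, 10.18 and 10.23. Celf3, an RNA-binding protein, had 76.8 to 108 CPM in kidney and 3 counts in all 4 hearts, a ratio of 2440 with a counting interval of 835 to 11834. On the heart side, myoglobin (Mb) had 0.0587, 0.403, 0.0214 and 0 CPM in the kidneys and 22150, 19352, 16119 and 18219 CPM in the hearts. Lrrc10 and Trim55, proteins of the cardiac sarcomere, had no count in the kidneys and 584 to 846 and 289 to 429 CPM in the hearts. Of all genes tested, 122 had no count in the hearts and 103 none in the kidneys.

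The same contrast in the 8 low-salt libraries, which share no library with the above, was made in the same way. There 7879 of 18159 genes (43.4%) were higher in kidney and 6877 (37.9%) lower. Of 14237 genes called on high salt and tested on low salt, 13201 (92.7%) were called in the same direction, where 81.3% of all genes were called in either, and 16 were called in opposite directions. The differences of Ckm (-14.20 on low salt and -13.71 on high salt), Cs (-3.74 and -3.80), Nr3c2 (0.12 and 0.13) and Hoxb7 (6.68 and 6.91) hardly moved. Others stood apart. Scnn1a had a log2 of 8.38 on low salt, with 119 CPM in kidney and 0.376 CPM in heart, and of 4.80 on high salt. Zbtb16 had -0.65 on low salt, with 36.4 CPM in kidney and 56.7 CPM in heart, and -3.14 on high salt. Akr1b1 had 2.21 on low salt, with 1955 CPM in kidney and 420 CPM in heart, and 3.93 on high salt. No test between the diets was made.

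On high salt, libraries of the same replicate number deviated together across tissues, although the labels do not say that they came from the same rat. Over 12608 genes at 1 CPM or more in both tissues, the deviations from the tissue mean correlated at 0.28 to 0.37 between kidney and heart of the same number, against -0.31 to 0.23 between different numbers. With batch means removed, pairs of the same number stood at 0.18 to 0.28 and other pairs at -0.28 to 0.04. That step makes the deviations of a tissue's libraries within a batch mirror images of each other. Other pairs within a batch therefore take the same value with the opposite sign, and their contrast with same-numbered pairs adds no information. On low salt, before batch means were removed, pairs of the same number ran from -0.01 to 0.36 and other pairs from -0.31 to 0.23. After their removal, low-salt pairs of the same number stood at 0.28 to 0.35 and other pairs at -0.35 to 0.15, with the same mirroring. These are correlations across genes, which are not independent replicates. Single genes, chosen after their values were seen, showed the pattern plainly. Fam111a had 6.81, 200, 4.98 and 4.64 CPM in kidneys 1 to 4 and 6.67, 352, 2.02 and 1.83 CPM in hearts 1 to 4, so that number 2 was high in both. Ndufa10l1 had 0, 0.0768, 9.37 and 0 CPM in the kidneys and 0.102, 0.482, 92.2 and 0.296 CPM in the hearts, high in number 3. Rpl30 had 55.3, 47.0, 4.53 and 52.4 CPM in the kidneys and 70.4, 68.2, 8.29 and 86.3 CPM in the hearts, low in number 3. Tpt1l3 had 0.176, 43.9, 44.8 and 57.6 CPM in the kidneys and 0.407, 122, 148 and 140 CPM in the hearts, low in number 1.

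**Figure D5:**
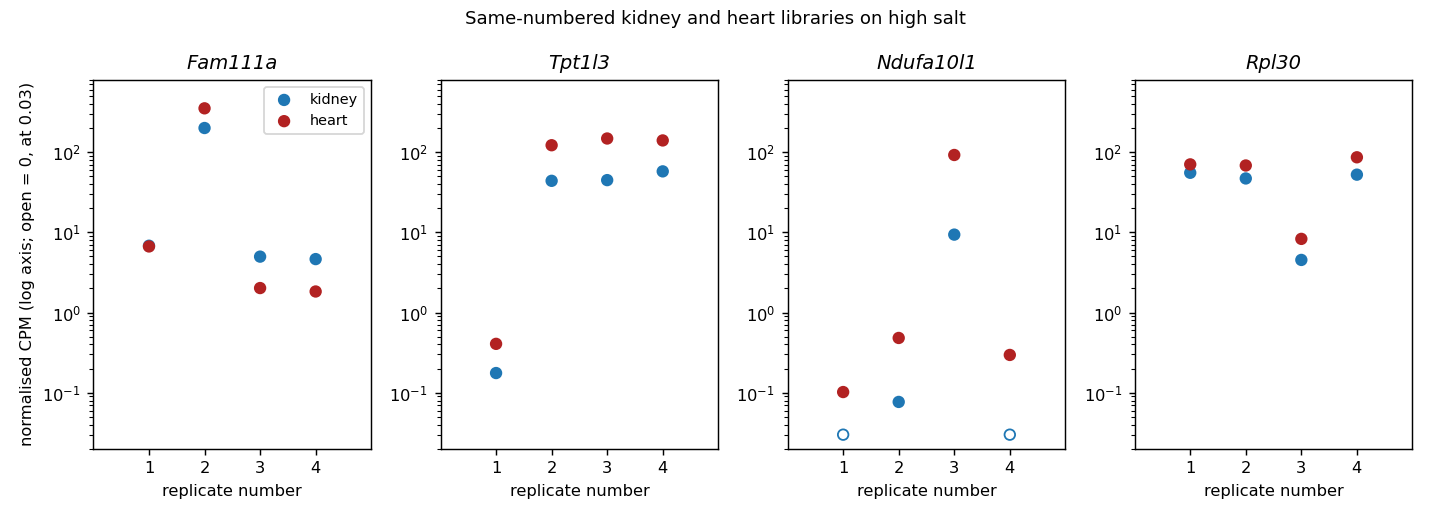
Normalised CPM (log axis, open symbols for 0) of 4 genes in kidney and heart libraries by replicate number on high salt. The number that stands apart in kidney stands apart in heart as well, number 2 for Fam111a (352 CPM in heart), 1 for Tpt1l3, and 3 for Ndufa10l1 and Rpl30.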

How the data were processed

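Poly(A) RNA of papilla and ventricle was sequenced with stranded TruSeq libraries, single-end for 50 cycles, per the labels' protocols. The authors deposited expected counts per gene for each library. Salmon, Trimmomatic, MultiQC and bcl2fastq 2.19 appear in the submitters' processing notes. Neither build, annotation nor strand setting is given in the sources used here. Counts on strand-overlapping genes and on near-identical copies are therefore uncertain. The 8 columns of the aldosterone experiment were not used.

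Expected counts were rounded to whole numbers. Genes passed a filter of 10 counts (filterByExpr), which 1 tissue alone can satisfy, and were scaled by TMM factors. Tissue was tested with batch as a covariate by edgeR 4.0.16 (R 4.3.3), using the quasi-likelihood F test with Benjamini-Hochberg adjustment at 0.05 over all genes tested. The fit was also run on simulated counts, in which all but a small set of genes had the same mean in both tissues. That setting is unlike the real comparison, so it does not test the scaling used here. DESeq2 1.42.0 served as an alternative, beside other scalings, filters, covariates and subsets of libraries. A gene without counts in a tissue got a bound at 3 counts over that group, and intervals on counts are exact 95% and cover counting error only. The SE of a log2 fold change is its absolute value over the square root of F. The 95% intervals of log2 fold changes are built on that SE. Where a tissue has few counts, both can understate the error.

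The members and gene lists were chosen with earlier results of these data known. Genes outside the lists are the 12 per direction with the largest difference at 50 CPM or more, the 10 most abundant per tissue and the 5 nearest to equality at 100 CPM or more with an SE under 0.15. From most lists the 4 largest differences per direction and the most abundant member could be named, and from the lists of isozymes, pumps, Hox genes, hormone systems and aquaporins every member. Other members named for contrast, and the genes of the same-number pattern, were chosen after their values were seen. Kidney and heart libraries share replicate numbers, and whether a shared number means a shared rat was not tested. Deviations of same-numbered kidney and heart libraries on high salt correlated at 0.28 to 0.37 over 12608 genes. The labels give no animal for either. Some genes of the lists are counted but not reported here by name.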

Additional observations from a re-analysis of the deposited data

Results flagged for a closer look

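A single library stood apart from the other 3 of its tissue for the genes below. For normally distributed values chance gives such a gap in about 1 of 20 groups of 4. Of 295 groups examined, 1 gene in 1 tissue each, 35 (11.9%) had such a library.

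Heart replicate 2 was the high library for kidney genes: Aqp2 had 28.7 CPM there, Aqp3 10.5 CPM, Aqp4 4.12 CPM, Avpr2 1.49 CPM, Hsd11b2 8.58 CPM and Fxyd4 3.77 CPM. Umod had 65.6 CPM there, Cdh16 24.8 CPM, Epcam 14.8 CPM, Cldn8 3.59 CPM and Cldn4 1.27 CPM. The factors Ehf, Pax2, Elf5 and Hoxb6 had 2.01, 2.06, 0.350 and 2.63 CPM in it, and Ckmt1 had 1.75 CPM. The source of these transcripts was not tested.

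Kidney replicate 2 was the high library for muscle genes at very low levels, with 0.691 CPM of Myh6, 0.403 CPM of Mb, 0.250 CPM of Actc1 and 0.096 CPM of Myl2. It was also the high kidney for Umod (767 CPM), Aqp4 (1284 CPM) and Kdr (17.5 CPM).

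Heart replicate 4 was high for Nppa at 3480 CPM, Myh7 at 6221 CPM and Fkbp1b at 0.494 CPM. Heart replicate 3 was high for Zbtb16 at 109 CPM, and heart replicate 1 for Eno1 at 1070 CPM and Slc2a4 at 652 CPM, while it was low for Plvap at 8.15 CPM. Among the kidneys, replicate 1 was high for Kcnip2 at 1.70 CPM, replicate 3 was low for Ckb at 170 CPM and high for Chrm2 at 0.0642 CPM, and replicate 4 was high for Ly6al at 917 CPM and low for Wt1 at 0.638 CPM.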

How the results depend on the processing

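With library totals only, 11925 genes were higher and 3803 lower in kidney on high salt, 9105 and 2704 of them by 2-fold or more. On low salt the counts were 12209 and 3768, 9398 and 2642 by 2-fold or more, and 1934 higher by 16-fold or more. Testing against a 2-fold difference gave 4108 higher and 3832 lower on high salt, and 4252 and 3882 on low salt. Leaving out 1 library at a time gave 7337 to 7734 higher and 6696 to 6767 lower on high salt, and 7515 to 7889 higher and 6695 to 6878 lower on low salt. With library totals the log2 fold change turned positive for Irx3 (0.27), Fkbp5 (0.63), Fxyd5 (0.49), Pgam1 (0.56), Cox8a (0.65), Slc25a5 (0.43), Nono (0.89), Fat1 (0.88) and Podxl (0.30), and Nono stood at 0.18 with upper quartile scaling. Hsp90b1 was at -0.34 in batch 2 only and at -0.35 against the batch 2 hearts. List medians that changed sign were those of Na,K-ATPase and FXYD (0.70 with library totals, 0.52 with a filter of 1 CPM, 0.05 in batch 1 only), adipocyte (-0.29 with that filter), nerve and Schwann cell (-0.16 in batch 1 only, -0.00 to 0.21 without single libraries, the lowest without kidney replicate 3), ribosomal proteins (0.15 with library totals) and sex-linked (0.39 with library totals). The median of cell cycle genes was 0.04 with upper quartile scaling, 0.75 with library totals, 0.60 in batch 2 only, 0.59 against the batch 2 hearts, and -0.51 to 0.16 without single libraries, positive without kidney replicate 2 (0.06) and heart replicate 2 (0.16). Against the batch 2 hearts the fitted medians were 8.71 for proximal tubule, 11.40 for thick ascending limb and 13.31 for principal cell genes, against 3.28, 6.26 and 8.26 with all hearts. The cause was not tested. With the replicate number as a block, 7450 genes were higher and 6674 lower in kidney on high salt, and 7685 and 6777 on low salt. The labels do not say whether a shared number means a shared rat. Among the genes named, the block ended the calls of Pkm and Fxyd5. Scaling without mitochondrially encoded genes was not run, as none of the 13 was in the tables used here. Use of the batch 2 hearts alone, and scaling without globin and ribosomal RNA, were chosen after seeing the data.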
